A study of Homo sapiens with 12 samples.

Results

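The comparison described here is the response of parental OCI-LY1 cells to decitabine. It uses 6 of the 12 libraries of the series, all those of the parental line. The tested libraries came from parental cells given 1 µM decitabine for 3 days (3 libraries), and the control libraries from parental cells given vehicle, DMSO, over the same 3 days (3 libraries). OCI-LY1 is an established human cell line from a diffuse large B-cell lymphoma, of the germinal-centre subtype. It is 1 line, so the values describe these cells and not lymphomas in general. The other 6 libraries came from OCI-LY1R, a derivative selected in culture with rising venetoclax up to 1 µM and given decitabine or vehicle in the same way; they appear below only where the 2 lines are set side by side. Venetoclax inhibits the survival protein BCL2, and the series asks how hypomethylating drugs bear on the sensitivity of lymphoma cells to it.

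Decitabine is a deoxycytidine analogue. Deoxycytidine kinase (DCK) phosphorylates it, it is built into new DNA, and it traps DNA methyltransferases, so that methylation of CpG sites is lost as cells divide. Known transcriptional effects of such drugs include the return of silenced genes, of transcripts from endogenous retroviruses, and of interferon-stimulated genes that answer to double-stranded RNA. Many human genes carry an annotated transcript on the other strand of the same DNA, and a library whose strand is read the other way round counts the RNA of a gene at that opposite feature. For this reason a feature opposite a gene is treated below as a possible proxy of the gene, and each is named by the gene that it faces.

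The values are transcripts per 1000000 transcripts (TPM), a length-normalised abundance that sums to 1000000 in each library. TPM keep no record of depth, so the depth of each library is unknown and no counting interval is given. Replicate 3 of the decitabine group was kept apart. Protein-coding features held 89.4% of its TPM, against 29.01% and 30.7% in decitabine replicates 1 and 2 and 26.6% to 28.6% in the vehicle libraries. Features annotated as antisense held 0.298% of replicate 3, 37.8% and 36.7% of decitabine replicates 1 and 2, and 44.6% to 48.4% of the vehicle libraries. Replicates 1 and 2 resembled the vehicle libraries in this and replicate 3 did not, so the response was tested as decitabine replicates 1 and 2 against the 3 vehicle libraries. Whether replicates came from separate cultures is not in the labels; the p-values therefore rest on a spread between libraries that may be technical.

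**Figure D1:**
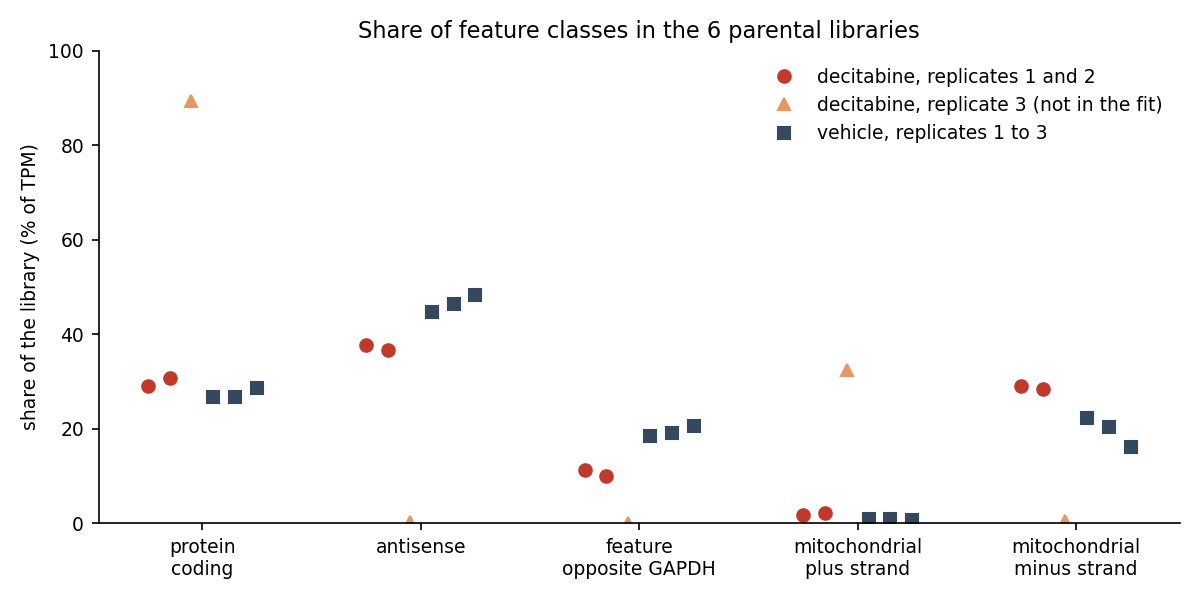
Share of each library's TPM (vertical axis, %) held by protein-coding features, antisense features, the feature opposite GAPDH and the features on each strand of the mitochondrial genome; each point is 1 parental library. Decitabine replicate 3 sits at 89.4% coding and 0.298% antisense, apart from the other 5 libraries. Decitabine replicates 1 and 2 lie above the vehicle libraries on the mitochondrial minus strand and below them at the feature opposite GAPDH.

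The B-cell identity of the line was visible mainly in replicate 3. CD79A, a signalling chain of the B-cell receptor, was at 1491 TPM in decitabine replicate 3, but reached no more than 5.32 and 8.74 TPM in replicates 1 and 2 of that group and 3.85, 3.39 and 8.72 TPM in the vehicle libraries. MS4A1, which encodes CD20, was at 204 TPM in replicate 3 and was listed at 0 in the other 5 libraries. PAX5, the B-lineage transcription factor, was at 136 TPM in replicate 3, against 11.7 and 11.4 TPM in replicates 1 and 2, with 10.9, 14.4 and 16.5 TPM in the vehicle libraries. Of 33 germinal-centre B-cell genes 17 were tested, none passed limma's test, and their median log2 fold change was 0.21, the same as over all features tested. Among 14 myeloid markers 12 were listed at 0 in all 5 libraries, and the list summed to 0.876 and 2.16 TPM with decitabine and to between 0.185 and 3.38 TPM with vehicle. The 14 fibroblast and epithelial markers summed to 5.05 and 4.73 TPM with decitabine and to between 0.953 and 3.32 TPM with vehicle, with 9 of the 14 at 0 throughout.

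The promoters of 4 genes that face called features are printed here because CpG sites are where decitabine acts. They are XAF1, TRIM25 and ERVK3-1, which face features that rose, and DDIT4, which faces a feature that fell. Each is 300 bases long, runs 5′ to 3′ on the strand of the gene, and comes from RefSeq (GRCh38.p14). The capitals mark CpG dinucleotides.
XAF1 (chr17:6755796-6756095, plus strand): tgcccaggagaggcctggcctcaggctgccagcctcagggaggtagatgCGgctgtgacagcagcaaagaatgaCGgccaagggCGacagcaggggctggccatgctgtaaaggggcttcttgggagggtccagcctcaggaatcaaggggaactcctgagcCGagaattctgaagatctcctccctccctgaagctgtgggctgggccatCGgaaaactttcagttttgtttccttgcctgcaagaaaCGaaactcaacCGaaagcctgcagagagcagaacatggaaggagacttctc
TRIM25 (chr17:56914000-56914299, minus strand): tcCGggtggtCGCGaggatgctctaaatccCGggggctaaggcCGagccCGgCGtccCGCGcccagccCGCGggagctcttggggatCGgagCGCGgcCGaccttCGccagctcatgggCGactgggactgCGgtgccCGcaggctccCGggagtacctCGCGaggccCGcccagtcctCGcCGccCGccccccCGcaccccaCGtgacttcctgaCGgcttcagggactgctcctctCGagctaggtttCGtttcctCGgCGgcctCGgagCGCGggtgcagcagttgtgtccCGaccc
ERVK3-1 (chr19:58305127-58305426, plus strand): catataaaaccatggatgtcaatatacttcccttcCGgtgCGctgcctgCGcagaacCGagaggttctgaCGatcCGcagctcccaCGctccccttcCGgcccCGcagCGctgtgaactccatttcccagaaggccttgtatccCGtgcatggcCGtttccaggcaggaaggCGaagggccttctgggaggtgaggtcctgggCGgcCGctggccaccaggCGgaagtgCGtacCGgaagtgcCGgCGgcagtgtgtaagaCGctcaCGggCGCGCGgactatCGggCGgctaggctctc
DDIT4 (chr10:72273674-72273973, plus strand): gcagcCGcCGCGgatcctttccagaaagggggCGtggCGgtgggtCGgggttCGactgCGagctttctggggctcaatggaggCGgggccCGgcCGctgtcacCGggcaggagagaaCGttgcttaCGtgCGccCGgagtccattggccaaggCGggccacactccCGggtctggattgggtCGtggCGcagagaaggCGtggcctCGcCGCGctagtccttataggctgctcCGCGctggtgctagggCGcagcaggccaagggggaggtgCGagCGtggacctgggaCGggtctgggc
The XAF1 window, the first of 2 listed starts, held 7 CpG sites, and 36.8% of the 35116 promoters in the table held fewer. The TRIM25 window held 37 (88.7% held fewer), the ERVK3-1 window 27 (71.8% held fewer) and the DDIT4 window 30 (77.6% held fewer). CpG content thus differed among genes facing features that moved the same way. DNA methylation was not measured.

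Of 8122 features tested, 151 passed at an adjusted p under 0.05 (limma), which is 1.86%. Of these, 112 rose with decitabine (1.38% of the features tested) and 39 fell (0.48%), and 1461 features had an unadjusted p under 0.05. The whole distribution was shifted upward: the median log2 fold change over all features tested was 0.21, and 5070 of them (62.4%) were positive. Under median-ratio scaling that median was 0.05 and the calls split into 105 rises and 88 falls, and under quantile scaling the median was -0.02 with 75 rises and 47 falls. A change near 0.2 on the log2 scale is therefore at the level of the shift itself. The number of features with at least 1 TPM was 8235 and 8187 with decitabine and 7327, 7289 and 7277 with vehicle, with no overlap, but 2 libraries against 3 cannot reach an exact two-sided permutation p below 0.2, and p = 0.2 was the value found.

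All 151 called features had groups that did not overlap, as did 39.4% of all features tested. Most calls were of 1 of 2 kinds. In 69 of them (46 rises and 23 falls) the feature was above 0 in all 5 libraries, and the change was one of level. In 74 of them 1 group was listed at 0 throughout, decitabine replicates 1 and 2 in 14 and the vehicle libraries in 60. In the other 8, among them SURF1 and ATG3, some but not all libraries of a group were at 0. Of the rises 42 were protein-coding, 30 antisense, 9 long intergenic and 6 mitochondrial tRNA features; of the falls 18 were protein-coding, 13 antisense and 1 long intergenic. By class, 28.6% of the 21 mitochondrial tRNAs tested passed, 2.72% of 368 long intergenic features, 2.59% of 1659 antisense features and 1.36% of 4401 coding features, against 1.86% of all.

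Most calls did not pass when 1 vehicle library was left out, though all 151 kept their direction in each such fit. Fits of 2 against 2 libraries have less power, so their counts do not show that any 1 library decided a call. Without decitabine replicate 1 or 2 the fit still called 95 and 92 of the 151 features, and without vehicle replicate 1, 2 or 3 it called 9, 12 and 26 of them. A fit without 1 decitabine library takes the spread from the vehicle libraries alone, and that spread is 0 for a feature at 0 in all of them. Adjusted p from such fits, here and below, are therefore no measure of stability, and those fits made more calls in all (231 and 264). Only 7 were called in all 5 of these fits. With decitabine replicate 3 added, no feature of 13778 passed (limma), with 262 at an unadjusted p under 0.05.

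**Figure D2:**
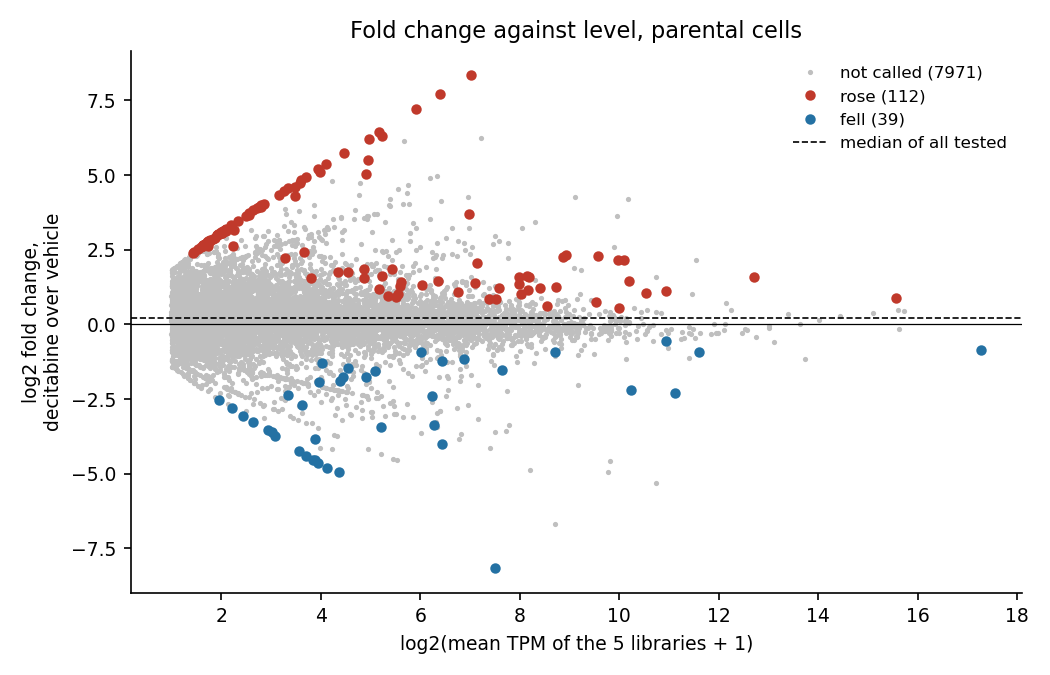
Log2 fold change of decitabine over vehicle (vertical axis) against level, as log2 of the mean TPM of the 5 libraries plus 1 (horizontal axis), for the 8122 features tested; the dashed line is the median of 0.21. The 112 rises and 39 falls include straight lines of points at the upper and lower edges, which are features listed at 0 throughout 1 group.

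Features that lie opposite a coding gene over at least 50% of their exon length made up 754 of those tested. Of these 17 rose and 4 fell (2.79%, against 1.86% of all features), with a median log2 fold change of 0.23. In 19 of these 21 the feature was more abundant than the gene facing it in the mean of the 5 libraries, and in 20 of 21 the gene was the more abundant in decitabine replicate 3. The order of the 2 strands thus differed between replicate 3 and the fitted libraries at almost every one of these loci. To be tested, a feature had to reach a mean of 1 TPM in the fitted libraries, and the gene facing it did not. The count of 19 is therefore in part fixed by that filter, and the same counts over all 754 features are not given here. The individual loci are taken below by the pathway of the gene facing them. Several of them (the features opposite TRIM25, SAMHD1, NQO1, ERVK3-1, BRI3BP, SMAD1, MIAT, FCGR2B, KLHL42, CCDC86, MIF and MXI1) were chosen for description after their values were seen.

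Among the rises were features facing XAF1, TRIM25 and SAMHD1, genes with known antiviral roles. XAF1 was on the list of interferon-stimulated genes, SAMHD1 on that of decitabine uptake and nucleotide metabolism, and TRIM25 on no list. The features facing TRIM25 and SAMHD1 were chosen after their values were seen. On the list of interferon-stimulated genes, 1 feature facing a member over at least 20% of its length was tested, and it rose (1.38% of all features rose). The largest rise with values above 0 in every fitted library lay at chromosome 17, positions 6772831 to 6776116 on the minus strand (GRCh38, GENCODE 29), where the long noncoding feature PRAL covers 77.15% of its length opposite XAF1, an interferon-induced antagonist of the apoptosis inhibitor XIAP. PRAL was at 264 and 302 TPM in decitabine replicates 1 and 2, against 22.7, 20.3 and 20.03 TPM in the vehicle libraries, and was listed at 0 in decitabine replicate 3. The decitabine values were thus far above all vehicle values, with a log2 fold change of 3.69 ± 0.13 (SE; adjusted p = 0.00453, limma). XAF1 itself was listed at 0 in decitabine replicate 1 and in all vehicle libraries, was at 3.20 TPM in decitabine replicate 2, and reached 41.8 TPM in decitabine replicate 3, the library in which PRAL was at 0.

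The antisense feature wholly opposite TRIM25, the ubiquitin ligase that activates the RNA sensor RIG-I, lies at chromosome 17, positions 56888880 to 56891841 on the plus strand. It was at 362 and 427 TPM in decitabine replicates 1 and 2, against 133, 164 and 169 TPM in the vehicle libraries. It rose by 1.34 ± 0.15 on the log2 scale (adjusted p = 0.0364, limma). TRIM25 itself was at 0.908 and 0.823 TPM in decitabine replicates 1 and 2, against 0.572, 0.689 and 8.22 TPM with vehicle. It did not pass (log2 fold change -0.638, adjusted p = 0.736, limma). In decitabine replicate 3 TRIM25 was at 65.8 TPM and the opposite feature at 0. TLDC2, whose exons run over 45.4% of their length opposite SAMHD1, the hydrolase that breaks down deoxynucleotides, was at 44.5 and 49.3 TPM with decitabine, against 18.5, 15.0 and 13.2 TPM with vehicle (log2 fold change 1.54 ± 0.20, adjusted p = 0.0474, limma). PRAL was called whichever library was left out. The other 2 were called in no such fit, their adjusted p lying between 0.103 and 0.149 without 1 decitabine library and between 0.0954 and 0.161 without 1 vehicle library (limma).

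The interferon-stimulated genes as annotated gave no call. Of 42 genes listed 8 were tested, 5 of them with a positive and 3 with a negative log2 fold change, and none passed limma's test (median 0.84, against 0.21 over all features). MX1, an antiviral GTPase, was at 11.1 and 597 TPM in decitabine replicates 1 and 2, against 5.24, 3.10 and 2.26 TPM with vehicle, so the 2 decitabine libraries differed far more from each other than replicate 1 did from the vehicle libraries (adjusted p = 0.296, limma). PARP9, an interferon-induced ADP-ribosyltransferase-family gene, was at 11.5 and 10.6 TPM with decitabine, against 3.16, 2.27 and 3.90 TPM with vehicle (log2 fold change 1.58, adjusted p = 0.085, limma). ISG15, a ubiquitin-like protein, was at 6.11 and 6.62 TPM against 1.45, 0 and 3.02 TPM (adjusted p = 0.274, limma). Of the nucleic-acid sensing genes 2 of 15 in the table were tested and neither passed. IRF3, a transcription factor that induces interferon, was at 37.0 and 36.5 TPM with decitabine, against 10.5, 13.3 and 7.57 TPM with vehicle (log2 fold change 1.75, adjusted p = 0.065, limma). The 1 feature tested that faces a gene of that list, BCL2L12 with 33.12% of its length opposite IRF3, was at 14.3 and 9.72 TPM with decitabine, against 38.2, 29.3 and 27.8 TPM with vehicle (-1.34, adjusted p = 0.09, limma).

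The feature wholly opposite MDM2, the ubiquitin ligase that degrades p53 and is itself induced by p53, rose. It lies at chromosome 12, positions 68841288 to 68843237 on the minus strand, and was at 608 and 691 TPM in decitabine replicates 1 and 2, against 260, 237 and 319 TPM with vehicle. The log2 fold change was 1.26 ± 0.16 (adjusted p = 0.0454, limma). MDM2 itself was at 10.97 and 10.8 TPM with decitabine and at 0, 3.79 and 5.71 TPM with vehicle, which did not pass (adjusted p = 0.358, limma). The feature wholly opposite NQO1, a quinone reductase of the oxidative stress response, at chromosome 16, positions 69709874 to 69710583 on the plus strand, was at 35.5 and 32.7 TPM with decitabine, against 10.9, 9.28 and 8.26 TPM with vehicle (log2 fold change 1.75 ± 0.19, adjusted p = 0.0346, limma). NQO1 itself was listed at 0 in 4 of the 5 libraries and at 1.54 TPM in vehicle replicate 3. Neither feature was called without any 1 of the 5 libraries, with an adjusted p between 0.0962 and 0.161 without 1 decitabine library and between 0.0656 and 0.147 without 1 vehicle library (limma). Of 24 p53 target genes 5 were tested, 4 of them positive, and none passed. Of 3 features tested that face such a gene over at least 20% of their length, all were positive and the 1 facing MDM2 passed. Over all features tested 62.4% were positive and 1.38% rose.

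A feature facing a gene derived from an endogenous retrovirus was among the rises. ERVK3-1 is a gene of retroviral (HERV-K family) origin, and the antisense feature that faces it over 85.83% of its length lies at chromosome 19, positions 58310449 to 58326933 on the minus strand. That feature was at 232 and 225 TPM in decitabine replicates 1 and 2, against 121, 131 and 124 TPM with vehicle, so the groups were tight and well apart (log2 fold change 0.86 ± 0.09, adjusted p = 0.0342, limma). ERVK3-1 itself was at 16.9 and 35.7 TPM with decitabine and at 62.6, 39.8 and 8.37 TPM with vehicle, values that overlapped (adjusted p = 0.925, limma). Retroviral repeats were not analysed here.

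Further rises of well-measured opposite features were smaller than 3-fold. THRIL, a long noncoding RNA known from regulation of TNF and lying wholly opposite BRI3BP, was at 479 and 465 TPM with decitabine, against 305, 298 and 314 TPM with vehicle (log2 fold change 0.63 ± 0.08, adjusted p = 0.041, limma). SMAD1-AS1, opposite the BMP signal transducer SMAD1, was at 1286 and 1215 TPM with decitabine, against 860, 882 and 827 TPM with vehicle (0.55 ± 0.07, adjusted p = 0.0474, limma). Both had replicates within a narrow band in each group. The log2 fold changes of the other 5 were 1.43 opposite MIAT (a long noncoding RNA), 1.44 opposite KLHL42 (an adaptor of a cullin ubiquitin ligase), 1.21 opposite GALNT7 (a mucin-type glycosyltransferase), 1.07 opposite FCGR2B (the inhibitory IgG receptor of B cells) and 0.76 opposite CCDC86. The feature opposite FCGR2B, for example, was at 152 and 162 TPM with decitabine, against 80.7, 69.1 and 73.0 TPM with vehicle, while FCGR2B itself was at 15.8 and 12.6 TPM against 20.5, 15.2 and 13.5 TPM. The 8 features of these 2 paragraphs had an adjusted p between 0.0453 and 0.146 without 1 decitabine library and between 0.0763 and 0.161 without 1 vehicle library (limma).

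**Figure D3:**
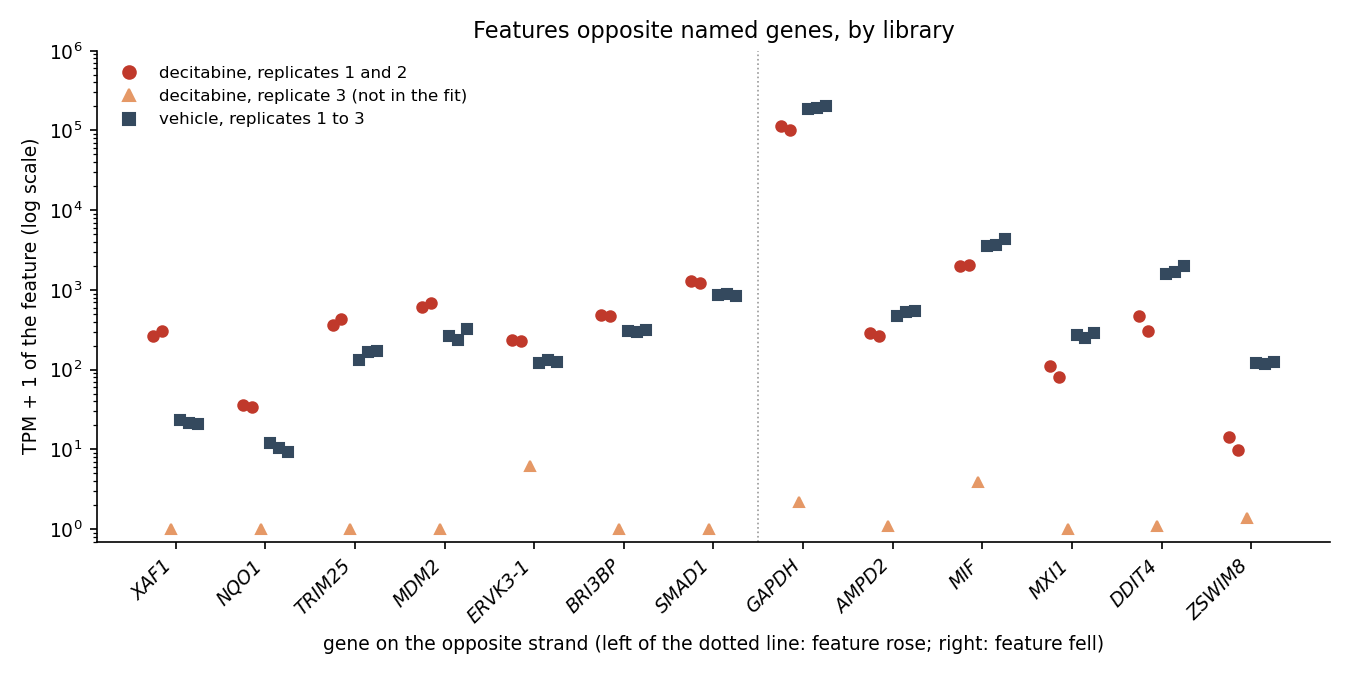
TPM plus 1 (vertical log axis) of 13 features that lie opposite named genes, in each parental library; decitabine points stand left of vehicle points. The 7 features left of the dotted line rose and the 6 right of it fell, and in decitabine replicate 3 each of the 13 was at 5.15 TPM or less.

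The falls on the opposite strand included loci of glycolysis and of the hypoxia response. The feature wholly opposite GAPDH, the glycolytic glyceraldehyde-3-phosphate dehydrogenase, lies at chromosome 12, positions 6537794 to 6538370 on the minus strand and was the most abundant feature of the fitted libraries. It was at 112376 and 100568 TPM in decitabine replicates 1 and 2, against 184585, 190847 and 205205 TPM with vehicle, and was thus lower in both decitabine libraries than in any vehicle library. It fell by 0.86 ± 0.08 on the log2 scale (adjusted p = 0.0284, limma); quantile scaling, which gives the most abundant feature of every library the same value, left a change of 0.00. GAPDH itself went the same way, at 8179 and 7262 TPM with decitabine and at 13528, 18292 and 20475 TPM with vehicle, without passing (log2 fold change -1.16, adjusted p = 0.0795, limma).

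DDIT4-AS1, wholly opposite the mTORC1 inhibitor DDIT4, which is induced by hypoxia and stress, lies at chromosome 10, positions 72274915 to 72275980 on the minus strand. It was at 466 and 305 TPM in decitabine replicates 1 and 2, against 1573, 1659 and 1985 TPM with vehicle (log2 fold change -2.20 ± 0.22, adjusted p = 0.031, limma). DDIT4 itself was at 43.0 and 25.2 TPM with decitabine, against 101, 110 and 135 TPM with vehicle, which did not pass (log2 fold change -1.76, adjusted p = 0.0687, limma). On both strands the values of decitabine replicates 1 and 2 lay below every vehicle value. MIF-AS1, which runs over 46.54% of its length opposite the cytokine gene MIF, was at 1970 and 2077 TPM with decitabine, against 3598, 3626 and 4349 TPM with vehicle (-0.93 ± 0.11, adjusted p = 0.0397, limma). The feature opposite MXI1, an antagonist of MYC, was at 110 and 79.1 TPM with decitabine, against 274, 246 and 287 TPM with vehicle (-1.51 ± 0.18, adjusted p = 0.0389, limma).

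The feature opposite AMPD2, an AMP deaminase, was at 285 and 262 TPM with decitabine, against 476, 526 and 550 TPM with vehicle (-0.92 ± 0.10, adjusted p = 0.0352, limma). ZSWIM8-AS1 faces ZSWIM8, a ubiquitin ligase subunit of microRNA decay. Among features above 0 in all 5 libraries that face a coding gene over at least 50% of their length, it had the largest fall. It was at 13.3 and 8.81 TPM with decitabine, against 119, 117 and 125 TPM with vehicle (-3.36 ± 0.20, adjusted p = 0.00982, limma). ZSWIM8 itself was at 121 and 58.4 TPM with decitabine, against 95.7, 103 and 92.6 TPM with vehicle (-0.205, adjusted p = 0.767, limma). AMPD2, MIF and MXI1 themselves were each at 0 in some of the 5 libraries. Their log2 fold changes were positive (0.805, 4.14 and 0.331) and did not pass. The 6 falls of these paragraphs had an adjusted p between 0.0117 and 0.157 without 1 decitabine library, and between 0.0532 and 0.143 without 1 vehicle library, where none was called (limma).

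The list of glycolysis and hypoxia genes held more negative than positive values on both strands, without a call among the genes themselves. Of 26 genes 13 were tested and none passed; 9 were negative, and the median log2 fold change was -0.54, against 0.21 over all features. Of 6 features tested that face a listed gene over at least 20% of their length, 5 were negative, 2 fell (those facing GAPDH and DDIT4; 0.48% of all features fell), and the median was -0.95. PDK1, the kinase that shuts pyruvate dehydrogenase, was at 22.0 and 23.4 TPM with decitabine, against 80.6, 84.3 and 55.0 TPM with vehicle (log2 fold change -1.63, adjusted p = 0.0567, limma). VEGFA, the angiogenic growth factor, was at 2.64 and 2.70 TPM with decitabine, against 6.87, 8.93 and 7.69 TPM with vehicle (-1.26, adjusted p = 0.0952, limma), and the feature wholly opposite it was at 58.0 and 27.7 TPM, against 188, 101 and 180 TPM (-1.88, adjusted p = 0.137, limma). The 4 members on the other side were HK2, a hexokinase, at 0.79, PFKP, a phosphofructokinase, at 1.30, PKM at 0.35 and BNIP3 at 0.23. Some members were low in the fitted libraries. LDHA, for example, was at 1.80 and 0 TPM with decitabine and at 1.61, 0.364 and 1.42 TPM with vehicle. In decitabine replicate 3 it was at 692 TPM.

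Mitochondrial features were higher in decitabine replicates 1 and 2 on most scalings. The mitochondrial genome is transcribed from both strands into long RNAs that are cut at the tRNAs, and most of its genes lie on the plus strand. Of 22 mitochondrial tRNA features 21 were tested, all 21 had a positive log2 fold change (median 0.83, against 0.21 over all features; under quantile scaling 19, with MT-TN and MT-TY at 0.00 and MT-TC at 0.029), and 6 rose, as they did under both other scalings. Features of this size are shorter than most RNA-seq fragments, and TPM divide by length, so their levels are not compared with those of other genes here. MT-TM, the methionine tRNA, was at 853 and 1032 TPM in decitabine replicates 1 and 2, against 177, 191 and 195 TPM with vehicle (log2 fold change 2.32 ± 0.12, adjusted p = 0.0074, limma). The neighbouring isoleucine and glutamine tRNAs lie on opposite strands and changed by like amounts: MT-TI by 2.15 on the plus strand and MT-TQ by 2.16 on the minus strand. MT-TE (1.59), MT-TT (1.46) and MT-TW (1.40), the tRNAs for glutamate, threonine and tryptophan, completed the rises. By strand, 4 of 13 plus-strand tRNAs rose with a median of 1.29, and 2 of 8 minus-strand tRNAs with a median of 0.47; the difference between the strands was not tested.

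MT-TM was called without decitabine replicate 1, without decitabine replicate 2 and without vehicle replicate 3. Over the 6 tRNAs the adjusted p lay between 0.0117 and 0.0778 without 1 decitabine library and between 0.0334 and 0.111 without 1 vehicle library (limma). The 2 ribosomal RNAs were positive (1.47 and 2.72) and did not pass. In all, minus-strand mitochondrial features held 29.04% and 28.3% of the library with decitabine, against 22.2%, 20.4% and 16.2% with vehicle, and plus-strand features 1.76% and 2.10% against 0.818%, 0.902% and 0.758%. In decitabine replicate 3 the order of the strands was the reverse, at 0.44% minus and 32.5% plus. Nuclear copies of mitochondrial genes on chromosome 1 moved too: MTND2P28 (log2 fold change 1.86), MTATP6P1 (1.31) and MTCO1P12 (1.21) rose. These pseudogenes are near-identical to MT-ND2, MT-ATP6 and MT-CO1, so their reads may be shared and their calls are uncertain.

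**Figure D4:**
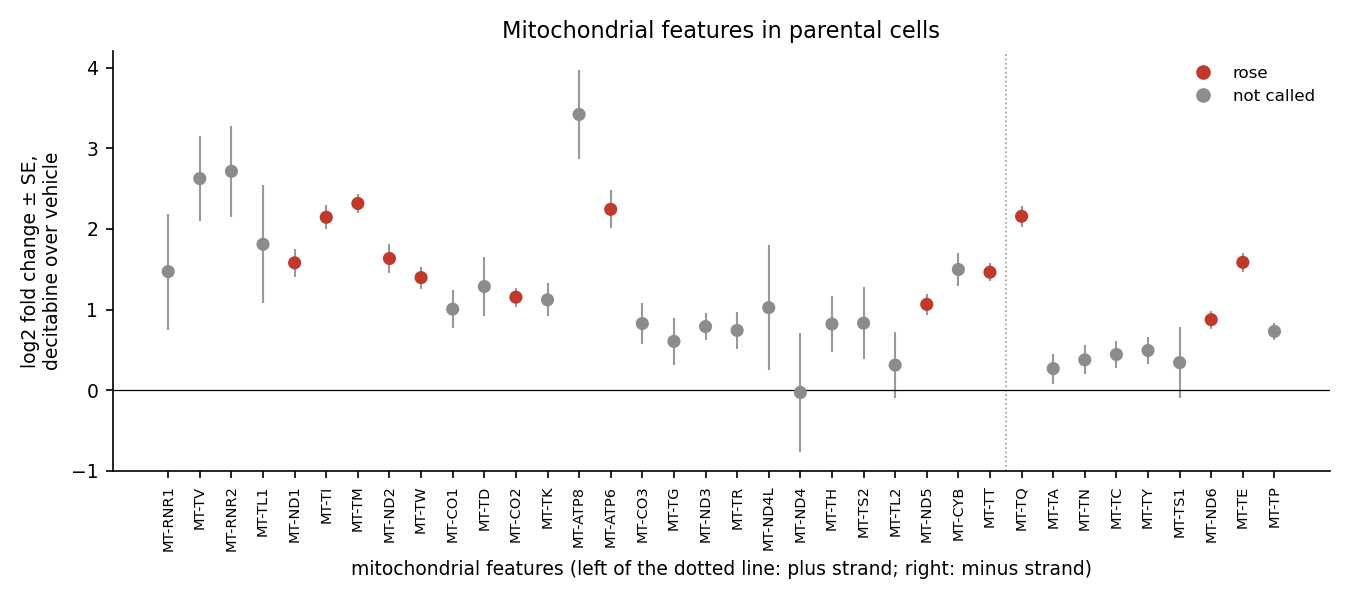
Log2 fold change of decitabine over vehicle with its standard error (vertical axis) for each mitochondrial feature tested, in genome order within each strand. Of the 36 points 35 lie above 0, and the 12 that rose are 6 features annotated as tRNAs and 6 annotated as protein-coding. Under quantile scaling MT-TN and MT-TY are at 0.00. MT-ND6 does not pass under quantile or median-ratio scaling (adjusted p = 0.0513 and 0.0846, limma).

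Coding features measured above 0 in all 5 libraries were also called. RASA4, with a log2 fold change of -4.01, is described further below. ITFG2, a subunit of the KICSTOR complex that restrains mTORC1, was at 245 and 271 TPM in decitabine replicates 1 and 2, against 57.3, 60.6 and 64.9 TPM with vehicle (log2 fold change 2.06 ± 0.11, adjusted p = 0.00891, limma). H4C9, a replication-dependent histone H4 gene, was at 58.2 and 65.9 TPM with decitabine, against 18.1, 22.1 and 17.9 TPM with vehicle (1.63 ± 0.17, adjusted p = 0.0327, limma). Of the 21 histone symbols listed 10 were in the table, 3 were tested and H4C9 was the 1 that passed (1.38% of all features rose). LAPTM5, a lysosomal membrane protein of blood cells that lowers B-cell receptor levels, was at 237 and 266 TPM with decitabine, against 141, 138 and 133 TPM with vehicle, and was at 701 TPM in decitabine replicate 3 (0.87 ± 0.10, adjusted p = 0.0365, limma). Replicate 3 bears on no rise of a coding gene, since coding features held most of that library. TNK2, a tyrosine kinase, was at 52.4 and 54.8 TPM against 22.7, 23.3 and 23.2 TPM (1.18), CYFIP1, a subunit of the actin-regulating WAVE complex, rose by 0.95, and EIF2B2, a subunit of the translation factor eIF2B, rose by 1.84.

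Falls among such coding features included ZBTB45, a zinc-finger gene, NKX6-3, a homeobox gene (-2.41), and PLA2G6, a phospholipase (-1.29). ZBTB45 was at 70.1 and 64.2 TPM with decitabine, against 158, 142 and 149 TPM with vehicle (-1.15 ± 0.11, adjusted p = 0.029, limma). NKX6-3 was at 18.2 and 22.1 TPM with decitabine, against 103, 110 and 121 TPM with vehicle, and at 82.6 TPM in decitabine replicate 3, between the other 2 decitabine libraries and the vehicle libraries. The 9 coding features of these 2 paragraphs had an adjusted p between 0.0139 and 0.127 without 1 decitabine library and between 0.0393 and 0.16 without 1 vehicle library (limma); 0, 0 and 1 of them were called without vehicle replicate 1, 2 and 3. LAPTM5, TNK2, CYFIP1, EIF2B2 and PLA2G6 were chosen for description after their values were seen.

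RASA4 and 3 near-identical copies on chromosome 7 all fell. RASA4, a GTPase-activating protein that switches off Ras after calcium signals, was at 7.11 and 8.19 TPM with decitabine and at 152, 129 and 134 TPM with vehicle. Its copies fell less: RASA4B by 1.77, the pseudogene RASA4CP by 1.22 and the pseudogene RASA4DP by 1.47 on the log2 scale (adjusted p = 0.0284, 0.0295 and 0.041, limma). RASA4B, for example, was at 7.55 and 8.35 TPM with decitabine, against 28.1, 28.7 and 31.6 TPM with vehicle, and at 16.8 TPM in decitabine replicate 3. Because the copies can share reads, the 4 changes are not independent, and no source used here says how the authors' counting split such reads. The adjusted p of the 3 copies lay between 0.0387 and 0.0843 without 1 decitabine library and between 0.0934 and 0.14 without 1 vehicle library (limma).

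Well-measured noncoding features away from coding genes also changed. A long intergenic feature at chromosome 21, positions 41559125 to 41562958 on the minus strand, was at 1421 and 1469 TPM with decitabine, against 341, 286 and 265 TPM with vehicle (2.28 ± 0.13, adjusted p = 0.0097, limma). A sense-intronic feature at chromosome 17, positions 28601827 to 28602284 on the minus strand, was at 776.7 and 571 TPM with decitabine, against 2968, 3042 and 3826 TPM with vehicle (-2.29 ± 0.19, adjusted p = 0.0208, limma). PMS2P1, a pseudogene of the mismatch-repair gene PMS2 with which it may share reads, was at 494 and 478 TPM against 157, 174 and 154 TPM (1.59 ± 0.10, adjusted p = 0.00982, limma). The adjusted p of these 3 lay between 0.0244 and 0.0568 without 1 decitabine library and between 0.0334 and 0.0894 without 1 vehicle library (limma).

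The other kind of call was a switch between 0 and a measured level. Coding genes listed at 0 in all vehicle libraries and called included MED4, a subunit of Mediator, at 58.0 and 93.2 TPM with decitabine, TANGO2 at 36.6 and 44.1 TPM, AFG3L2, a mitochondrial protease subunit, at 34.9 and 25.5 TPM, RPA1, the large subunit of replication protein A, at 24.8 and 14.9 TPM, and CDC27, a subunit of the anaphase-promoting complex, at 16.4 and 12.5 TPM. VMP1, an autophagy gene, was at 14.4 and 15.4 TPM with decitabine and at 0, 0 and 0.15 TPM with vehicle, and SURF1, an assembly factor of cytochrome c oxidase, at 71.2 and 75.9 TPM against 1.73, 0.657 and 0 TPM. In the other direction BCAS3, PATL1 (mRNA decapping), CEACAM1 (a cell adhesion receptor), RPP40 (a subunit of RNase P) and E2F8 (a repressor of the cell cycle) were listed at 0 in both decitabine replicates 1 and 2. ATG3, which conjugates LC3 in autophagy, was at 0 and 0.179 TPM with decitabine, against 31.7, 31.4 and 34.6 TPM with vehicle. E2F8 was at 10.5, 15.9 and 10.9 TPM and CEACAM1 at 25.1, 36.0 and 21.4 TPM with vehicle. All of these falls and rises were above 0 in decitabine replicate 3, for example RPA1 at 70.4 TPM and ATG3 at 73.4 TPM. Fold changes fitted for features at 0 throughout 1 group depend on the pseudocount and are no measure of size.

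Such switches were also common between replicates of the same group. Over all features 658 were listed at 0 in some vehicle libraries and at 5 TPM or more in the others, and 529 switched in that way between decitabine replicates 1 and 2. By the same limit 48 features were at 0 in all vehicle libraries and at 5 TPM or more in both decitabine replicates, and 13 the other way. The 7 rises named above had an adjusted p between 0.0117 and 0.107 without 1 decitabine library and between 0.0324 and 0.104 without 1 vehicle library, and the 6 falls between 0.0117 and 0.0635 and between 0.0382 and 0.0845 in the same order (limma). TANGO2, AFG3L2, RPA1, CDC27, VMP1 and E2F8 were chosen for description after their values were seen.

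The genes closest to the drug and to venetoclax gave no call. DNMT1, the maintenance methyltransferase that decitabine traps, was at 0.875 and 2.40 TPM in decitabine replicates 1 and 2, against 2.23, 0 and 1.04 TPM with vehicle (adjusted p = 0.752, limma), and at 221 TPM in decitabine replicate 3. DNMT3A, DNMT3B and TET2, the de novo methyltransferases and a methylcytosine oxidase, stayed under the mean of 1 TPM that the test required. Of 18 genes of DNA methylation 5 were tested, none passed, and the median was -0.73. DCK was at 0 and 1.80 TPM with decitabine and at 2.05, 3.16 and 2.51 TPM with vehicle (adjusted p = 0.377, limma); the nucleoside transporter SLC29A1 was under the limit, and the cytidine deaminase CDA was at 0 in all 6 libraries.

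BCL2, the target of venetoclax, was at 75.0 and 88.6 TPM with decitabine, against 53.8, 55.9 and 52.8 TPM with vehicle, with no overlap and no call (log2 fold change 0.58 ± 0.13, adjusted p = 0.121, limma). BCL2L1, which encodes BCL-XL, was at 22.6 and 29.1 TPM against 3.09, 2.07 and 32.5 TPM, and MCL1 was under the limit. Of the 12 pro-apoptotic family members 8 were tested, 4 were positive and none passed. BCL2L11, which encodes BIM, was at 18.6 and 15.0 TPM with decitabine, against 6.59, 15.8 and 8.08 TPM with vehicle, and BMF at 19.3 and 23.6 TPM against 18.0, 0 and 22.6 TPM. BAX was at 3.19 and 7.52 TPM against 2.67, 1.19 and 0.674 TPM (adjusted p = 0.296, limma). PMAIP1, which encodes NOXA, was at 0.195 and 3.61 TPM against 4.02, 4.999 and 3.84 TPM, BAK1 was at 0 in 4 of the 5 libraries, and BBC3, which encodes PUMA, was under the limit. Of 33 cytosolic ribosomal protein genes 26 were tested and none passed, with 12 positive and a median of -0.09. Of 43 nuclear-encoded respiratory chain genes 16 were tested. Of these 1 rose and 1 fell (against 1.38% and 0.48% of all features), both switches from or to 0.

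A wider count of features that came on with decitabine did not depend on the test. In parental cells 193 features were at 0 in all 3 vehicle libraries and at 1 TPM or more in both decitabine replicates 1 and 2, and 48 went the other way. In resistant cells, with 3 libraries in each group, 173 came on and 17 went off. More features reached 1 TPM with decitabine than with vehicle over the whole parental table (8235 and 8187 against 7327, 7289 and 7277). Of the 193 parental features, 82 were at 0 in all 3 resistant vehicle libraries, so only these could come on in both lines. The 2 sets that came on shared 20 features, 10.4% of the parental set and 11.6% of the resistant set. No feature was shared by the smaller sets of 48 and 17 that went off. The 20 include KLRK1, which encodes the NKG2D receptor, VIM-AS1, which faces the mesenchymal filament gene VIM, the chloride transporter gene CLCN6, and the feature wholly opposite EMP2, an epithelial membrane protein, at chromosome 16, positions 10529440 to 10532082 on the plus strand. VIM-AS1 was at 10.8 and 5.54 TPM, CLCN6 at 7.91 and 4.96 TPM and the EMP2 feature at 7.09 and 7.23 TPM in decitabine replicates 1 and 2; all 3 were called (adjusted p = 0.0453, 0.0419 and 0.0309, limma). Their adjusted p lay between 0.0934 and 0.152 without 1 vehicle library (limma). These 3 were chosen after their values were seen.

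KLRK1 is a receptor of NK and T cells. Of 18 T and NK cell markers 3 were tested and KLRK1 was the 1 that rose (1.38% of all features rose). Without KLRK1 the list summed to 4.42 and 2.04 TPM with decitabine, against 1.52, 3.64 and 6.14 TPM with vehicle, and 9 of the 18 were at 0 in all 5 libraries. Of 41 cancer-testis and germline genes, known to return when DNA methylation is lost, 1 was tested (SYCP3, of the synaptonemal complex, at 16.4 and 34.3 TPM with decitabine against 8.32, 12.4 and 15.1 TPM with vehicle) and it did not pass (adjusted p = 0.317, limma).

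In resistant cells decitabine against vehicle called 243 rises (2.83% of 8579) and 65 falls (0.758%). The 2 lines share no library, so their responses can be set side by side. Of the 112 parental rises 107 were tested in resistant cells and 91 of them (85.0%) were positive there, against 68.5% of all features that were positive in parental cells. Of the 39 parental falls 38 were tested and 31 (81.6%) were negative there, against 54.9% of all features that were negative in parental cells. Called the same way were 20 rises (17.9% of the parental rises and 8.23% of the resistant rises) and 7 falls (17.9% and 10.8%), and none was called the other way. Shared calls included PRAL (2.43 in resistant cells), H4C9 (2.06), MT-TM (1.82), the feature opposite MDM2 (0.92), TNK2 (1.27), SMAD1-AS1 (0.83), DDIT4-AS1 (-1.57), MIF-AS1 (-0.67), NKX6-3 (-2.19) and ZBTB45 (-1.27), all on the log2 scale. Loci not called in resistant cells included the features opposite TRIM25 (0.56 in resistant cells) and ERVK3-1 (0.21) and TLDC2 (0.17), but a test of the difference between the lines did not pass for them either (adjusted p = 0.199 for TRIM25, 0.153 for ERVK3-1 and 0.124 for TLDC2, limma). ZSWIM8-AS1, which fell in parental cells, was at 141, 158 and 158 TPM with decitabine in resistant cells, against 13.3, 93.0 and 96.5 TPM with vehicle (log2 fold change 1.59, adjusted p = 0.296, limma). A single vehicle library, at 13.3 TPM, stood far below the others there, and the difference between the lines did not pass (adjusted p = 0.0846, limma).

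**Figure D5:**
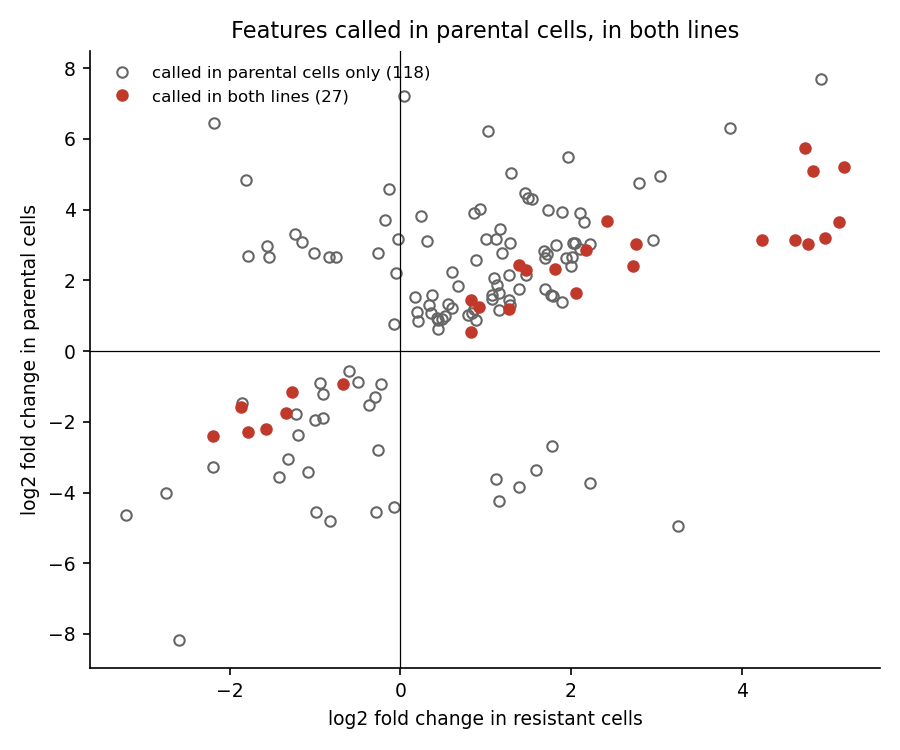
Log2 fold change of decitabine over vehicle in parental cells (vertical axis) and in resistant cells (horizontal axis) for the 145 features called in parental cells and tested in both lines. The 27 features called in both lines all lie at the lower left and upper right, where the direction is the same.

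The test of the difference between the responses, parental minus resistant, passed for 31 of 8505 features (0.364%; limma), 15 more positive in parental cells and 16 more negative. Leaving out 1 library moved that count to between 12 (without parental vehicle replicate 3) and 47 (without resistant vehicle library a). Only 6 of the 151 parental calls were among them, and all 6 are given in the closing section. FAS, the death receptor, was no parental call but differed between the lines. It was at 1.81 and 0.881 TPM in decitabine replicates 1 and 2 of parental cells, against 8.63, 7.89 and 11.1 TPM with vehicle (log2 fold change -2.14, adjusted p = 0.0626, limma). In resistant cells it was at 73.3, 95.0 and 63.1 TPM with decitabine, against 8.20, 9.54 and 15.2 TPM with vehicle (2.73, adjusted p = 0.0127, limma). The difference of the responses was -4.87 (adjusted p = 0.0019, limma). BMF-AS1, wholly opposite the pro-apoptotic gene BMF, was at 617 and 746 TPM with decitabine in parental cells, against 619, 678 and 753 TPM with vehicle, and at 794, 740 and 680 TPM against 335, 330 and 316 TPM in resistant cells, a difference of -1.17 (adjusted p = 0.0346, limma). For PINK1, a kinase of mitochondrial quality control, the difference was -1.73 (adjusted p = 0.0495, limma), with 0.36 in parental and 2.09 in resistant cells.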

How the data were processed

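RNA from 12 samples was sequenced, and 1 table per line of cells held the values. The authors deposited TPM per gene feature; no header names the unit, which was read from the values, since each library sums to 1000000. The submitters' processing notes name HISAT2, StringTie, DESeq2 and hg38; no source used here gives their versions or the strand setting. Columns were matched to samples by title, and resistant columns without a number are lettered. Rows were taken by gene name, and 1166 features whose name recurs were left out, which left 59490. Positions come from GENCODE 29, in which 54865 names were found at 1 place each.

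The fit was limma 3.58.1 (R 4.3.3), with a trend, on log2(TPM + 1) for features whose mean reached 1 TPM, with Benjamini-Hochberg adjustment over all features tested. Fold changes are on that scale, which understates changes of low features. Single values were tested by an exact two-sided permutation test. On simulated data for this comparison with 8122 features, limma recovered 16% of features changed by 1 on the log2 scale, 68% at 2, 80% at 3 and 80% at 4. Those changes were placed only in features with a mean log2(TPM + 1) of at least 3, with normally distributed noise. No feature was made to switch on or off, so the recovery does not cover lower features or such switches. A feature counted as opposite a coding gene with at least 50% of its exon length facing that gene's exons.

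Named were the 10 best-supported rises and 10 such falls by adjusted p above 0 in all 5 libraries, the 8 largest each way, called list members and features facing them, the 6 largest clone-named features each way (by position), the 6 opposite features each way of smallest adjusted p, and 16 core genes, without those whose values add nothing; features chosen after their values were seen are marked as such. The members and lists were chosen with earlier results of these data known. Alternatives tried were another pseudocount, other filters and thresholds, quantile and median-ratio scaling, decitabine replicate 3, repeated names, no trend, a replicate block, and each library left out.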

Additional observations from a re-analysis of the deposited data

Results flagged for a closer look

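The decitabine response of 6 features called in parental cells differed between the lines in limma's test of parental minus resistant log2 fold change. The difference was 8.34 for UQCR10, a subunit of respiratory complex III (adjusted p = 1.31e-05, limma), which was at 342 and 304 TPM in parental decitabine replicates 1 and 2 and listed at 0 in the parental vehicle libraries and in all 6 resistant libraries. It was 5.36 for TANGO2 (adjusted p = 0.000579, limma), likewise at 0 in all resistant libraries. It was 4.55 for a feature with 55.93% of its exon length opposite PTPRB, at chromosome 12, positions 70570969 to 70571440 on the plus strand (adjusted p = 0.00135, limma), at 19.4 and 26.0 TPM with decitabine, 0 with vehicle and 0 in all resistant libraries. For these 3 the difference is the parental value itself, fitted on log2(TPM + 1) against libraries at 0, so its size depends on the pseudocount and is no fold.

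A feature without a position in GENCODE 29 gave 0.92 (adjusted p = 0.0154, limma): 2925 and 2898 TPM in parental decitabine replicates 1 and 2 against 1305, 1409 and 1312 TPM with vehicle, and 4054, 4542 and 4582 TPM in resistant decitabine libraries against 3693, 3857 and 3947 TPM with vehicle. A second such feature gave 3.08 (adjusted p = 0.0346, limma), with 18.8 and 12.3 TPM in parental decitabine replicates 1 and 2 and 0 in the parental vehicle libraries. The difference was -2.53 for an antisense feature at chromosome 9, positions 37509150 to 37510299 on the plus strand (adjusted p = 0.037, limma), which was at 0 in parental decitabine replicates 1 and 2, at 29.4 TPM in replicate 3, at 4.23, 5.41 and 4.76 TPM with vehicle, and at 0 in all resistant libraries.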

How the results depend on the processing

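The parental count of 151 calls was 35 with no filter on low values, 79 over features above 0 in every fitted library, 23 at an adjusted p under 0.01, and 14 to 264 with 1 library left out. Every call that was tested under these settings kept its sign. With decitabine replicate 3 included the count was 0 (262 features at an unadjusted p under 0.05, limma). With replicates 1 and 2 as a replicate block it was 0 (978 unadjusted), and with the block and replicate 3 also 0 (234 unadjusted); same-numbered libraries had deviations correlated at -0.0111 and -0.0121, so the numbers are not shown to pair the samples. Rescaling, chosen after seeing the data, gave 139 calls without the feature opposite GAPDH and 141 without mitochondrial features as well. The resistant count of 308 was 73 with no filter, 194 at a mean of at least 5 TPM, 196 under quantile scaling and 90 to 197 with 1 library left out. The 31 differences between lines were 7 with no filter, 15 above 0 in every library, 6 at an adjusted p under 0.01, 1 with replicate 3 and 12 to 47 with 1 library left out. Calls facing a coding gene numbered 35 at 20% and 12 at 80% of exon length, against 21 at 50%.

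Including replicate 3, with or without the block, reversed 19 of 97 features named. The log2 fold changes then were -1.85 opposite MDM2, -1.30 opposite GALNT7, -1.53 opposite TRIM25, -0.32 for TLDC2, -0.88 opposite ERVK3-1, -2.33 for THRIL, -2.88 for SMAD1-AS1, -0.55 opposite MIAT, -1.36 opposite FCGR2B, -0.91 opposite KLHL42, -2.56 opposite CCDC86, -0.26 for MT-TE, -1.38 for MT-ND6, -0.49 for CYFIP1, -1.22 for the chromosome 21 intergenic feature, -2.71 for an unplaced feature, 0.59 for DCK, 0.51 for PMAIP1 and 0.39 for BAK1. The cause was not tested. Quantile scaling gave 0.00 opposite GAPDH by construction and -0.068 for DNMT1, whose log2 fold change ran from -0.025 without vehicle replicate 2 and -0.001 without decitabine replicate 2 to 0.859 without decitabine replicate 1. TPM keep no depth, so no limit of detection can be given for features listed at 0.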
